A study of Mus musculus with 2 samples.

Results

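Hypoxia-induced genes are described here in cells recovered from CD45-selected preparations of mouse tumours. The set holds 10 genes, Vegfa, Slc2a1, Bnip3, Ndrg1, Egln3, Adm, Hk2, Pdk1, Ankrd37 and Ldha, chosen by symbol from the 31053 genes of the count matrix, and all 10 were found. The study has 2 groups with 1 library each. Tumours grew from MTC-Q1 mouse oral cancer cells with miR-21 KO in one group and from WT MTC-Q1 cells in the other, both under the skin of C57BL/6 mice for 2 weeks. All animals of both groups then received cisplatin, a DNA-crosslinking drug, at 5 mg/kg, and cells were taken 72 hours later, freed of dead cells, selected with CD45 microbeads and sequenced at transcript 3′ ends in droplets. The labels do not say how many animals or KO clones stand behind a library, the KO is in the injected cancer cells and not in the host, and untreated tumours were not analysed here. Barcodes carry the suffix 1 or 2, and no source used here ties a suffix to WT or KO, so values are given for library 1 and library 2 and no difference has a direction between the genotypes.

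Cells short of oxygen stabilise hypoxia-inducible factor (HIF), a transcription factor made of an oxygen-regulated alpha subunit and the partner ARNT. With oxygen present, prolyl hydroxylases of the Egln family mark the alpha subunit for destruction through the VHL protein. HIF target genes raise glucose uptake and glycolysis, hold pyruvate back from mitochondria, clear mitochondria and call in blood vessels. In myeloid cells and activated lymphocytes many of these genes also answer to inflammatory or antigen signals at normal oxygen, so their mRNA alone does not measure oxygen.

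The libraries differed in size and make-up. Library 1 held 4979 cells after filtering with a median of 7008 unique molecular identifiers (UMIs), and library 2 held 6744 cells with a median of 14835 UMIs. Cells were gated by marker UMIs into 14 classes, and each class is called by the markers of its gate. Gated naive-type T cells numbered 2803 in library 1 and 100 in library 2, and gated monocytes 135 in library 1 and 841 in library 2. Gm42418, a transcript that overlaps ribosomal RNA, stood at 32578 CPM in the monocytes of library 1 and 9329 CPM in those of library 2, where CPM is the usual depth-scaled unit, the UMIs of a gene relative to all UMIs of the class, and 8 barcode sequences occurred in both libraries. The naive-type T cells of library 2 held 150 CPM of the proliferation gene Mki67, against 13.2 CPM in library 1 for the larger class; the naive markers summed to 2555 CPM (library 1) and 1269 CPM (library 2). With 1 library per group no test was possible, and every 95% interval below covers counting error only.

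ACGTG is a form of the core motif that HIF binds, and other forms were not searched. RefSeq promoters of GRCm38.p6 were read from 250 bases before to 50 after a start site. ACGTG on either strand was found in 7 of the 9 genes of the set that had an entry, against 21.8% of 27025 genes. Counted by promoter, it was found in 7 of the 12 promoters of these genes, against 19.6% of 32851 promoters. The promoters of the 5 genes that were highest in gated monocytes in both libraries are printed below, with that of Pdk1, which was highest in naive-type T cells. They are Vegfa (chr17:46032328-46032627 on the minus strand), Slc2a1 (chr4:119108495-119108794 on the plus strand), Bnip3 (chr7:138909457-138909756 on the minus strand), Hk2 (chr6:82774405-82774704 on the minus strand), Ankrd37 (chr8:45999801-46000100 on the minus strand) and Pdk1 (chr2:71872974-71873273 on the plus strand). Capitals mark ACGTG or its reverse complement CACGT, and CACGTG holds the motif on both strands at once. Each is written 5′ to 3′ along the strand of the gene.
Vegfa: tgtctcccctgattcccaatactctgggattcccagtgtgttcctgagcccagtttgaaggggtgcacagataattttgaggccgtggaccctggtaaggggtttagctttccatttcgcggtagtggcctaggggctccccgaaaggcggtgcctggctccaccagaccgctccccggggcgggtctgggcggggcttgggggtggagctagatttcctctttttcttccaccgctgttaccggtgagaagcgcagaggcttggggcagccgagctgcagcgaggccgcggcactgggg
Slc2a1: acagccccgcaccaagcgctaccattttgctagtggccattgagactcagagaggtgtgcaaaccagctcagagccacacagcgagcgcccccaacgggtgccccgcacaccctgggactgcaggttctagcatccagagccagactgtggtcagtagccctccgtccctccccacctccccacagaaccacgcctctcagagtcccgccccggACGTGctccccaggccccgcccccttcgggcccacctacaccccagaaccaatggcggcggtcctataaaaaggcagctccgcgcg
Bnip3: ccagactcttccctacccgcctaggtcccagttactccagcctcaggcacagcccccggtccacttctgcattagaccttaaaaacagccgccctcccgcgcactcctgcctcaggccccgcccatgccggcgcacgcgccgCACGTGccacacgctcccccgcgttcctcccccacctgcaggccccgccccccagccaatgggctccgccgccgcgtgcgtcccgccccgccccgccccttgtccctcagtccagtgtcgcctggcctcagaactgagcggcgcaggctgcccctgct
Hk2: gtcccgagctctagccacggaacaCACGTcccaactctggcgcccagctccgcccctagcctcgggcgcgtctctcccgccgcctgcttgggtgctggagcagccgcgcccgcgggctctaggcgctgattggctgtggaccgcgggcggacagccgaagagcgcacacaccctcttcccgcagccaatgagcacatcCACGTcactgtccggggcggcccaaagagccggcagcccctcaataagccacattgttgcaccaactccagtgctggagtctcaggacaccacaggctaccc
Ankrd37: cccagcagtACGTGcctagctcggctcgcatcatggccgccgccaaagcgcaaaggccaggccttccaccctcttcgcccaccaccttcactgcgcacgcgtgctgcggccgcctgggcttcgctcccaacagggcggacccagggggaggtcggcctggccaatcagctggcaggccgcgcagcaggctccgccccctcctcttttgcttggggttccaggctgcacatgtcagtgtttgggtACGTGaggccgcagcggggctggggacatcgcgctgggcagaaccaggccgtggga
Pdk1: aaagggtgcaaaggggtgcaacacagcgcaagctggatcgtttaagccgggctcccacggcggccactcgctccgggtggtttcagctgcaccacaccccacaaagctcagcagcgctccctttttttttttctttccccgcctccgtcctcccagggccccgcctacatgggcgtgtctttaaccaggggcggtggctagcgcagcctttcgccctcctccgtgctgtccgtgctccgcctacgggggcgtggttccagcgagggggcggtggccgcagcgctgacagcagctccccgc
Hk2 and Ankrd37 each had the motif at 2 places, Slc2a1 at 1, and Bnip3 at 1 as the palindrome. The printed windows of Vegfa and Pdk1 did not hold these letters. A second Vegfa promoter, inside the gene at chr17:46025114-46025413 on the minus strand, held 1 match, the Ldha promoter at chr7:46845554-46845853 on the plus strand held 3, Egln3 held 1 and Adm none. A match describes the letters of a window and says nothing of binding in these cells. A window without a match may hold another form of the motif. Ndrg1 has no entry in the promoter table.

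Levels were ranked over 8 classes, those that had 50 cells or more and 200000 UMIs or more in both libraries. Gene spans given beside the symbols are mm10. Gated monocytes, defined by Ly6c2, Ccr2, Plac8, Chil3, Vcan and Ms4a4c, held the highest level of 5 genes of the set in both libraries, namely Vegfa, Slc2a1, Bnip3, Hk2 and Ankrd37. Among all 9313 genes of at least 10 CPM in both libraries, 6.88% were led by monocytes in both. Ndrg1 and Adm were led by collagen-rich cells with little Ptprc in both libraries (27.4% of all genes), and Pdk1 by naive-type T cells in both (5.51%). In all, 8 of the 9 genes that reached 10 CPM kept their leading class from library to library, against 61% of all genes. Ldha changed its leader between the libraries, and Egln3 did not reach 10 CPM in library 1. The leads were not equally clear: Slc2a1 was the one monocyte-led gene whose Poisson interval lay apart from that of the next class in both libraries.

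**Figure D1:**
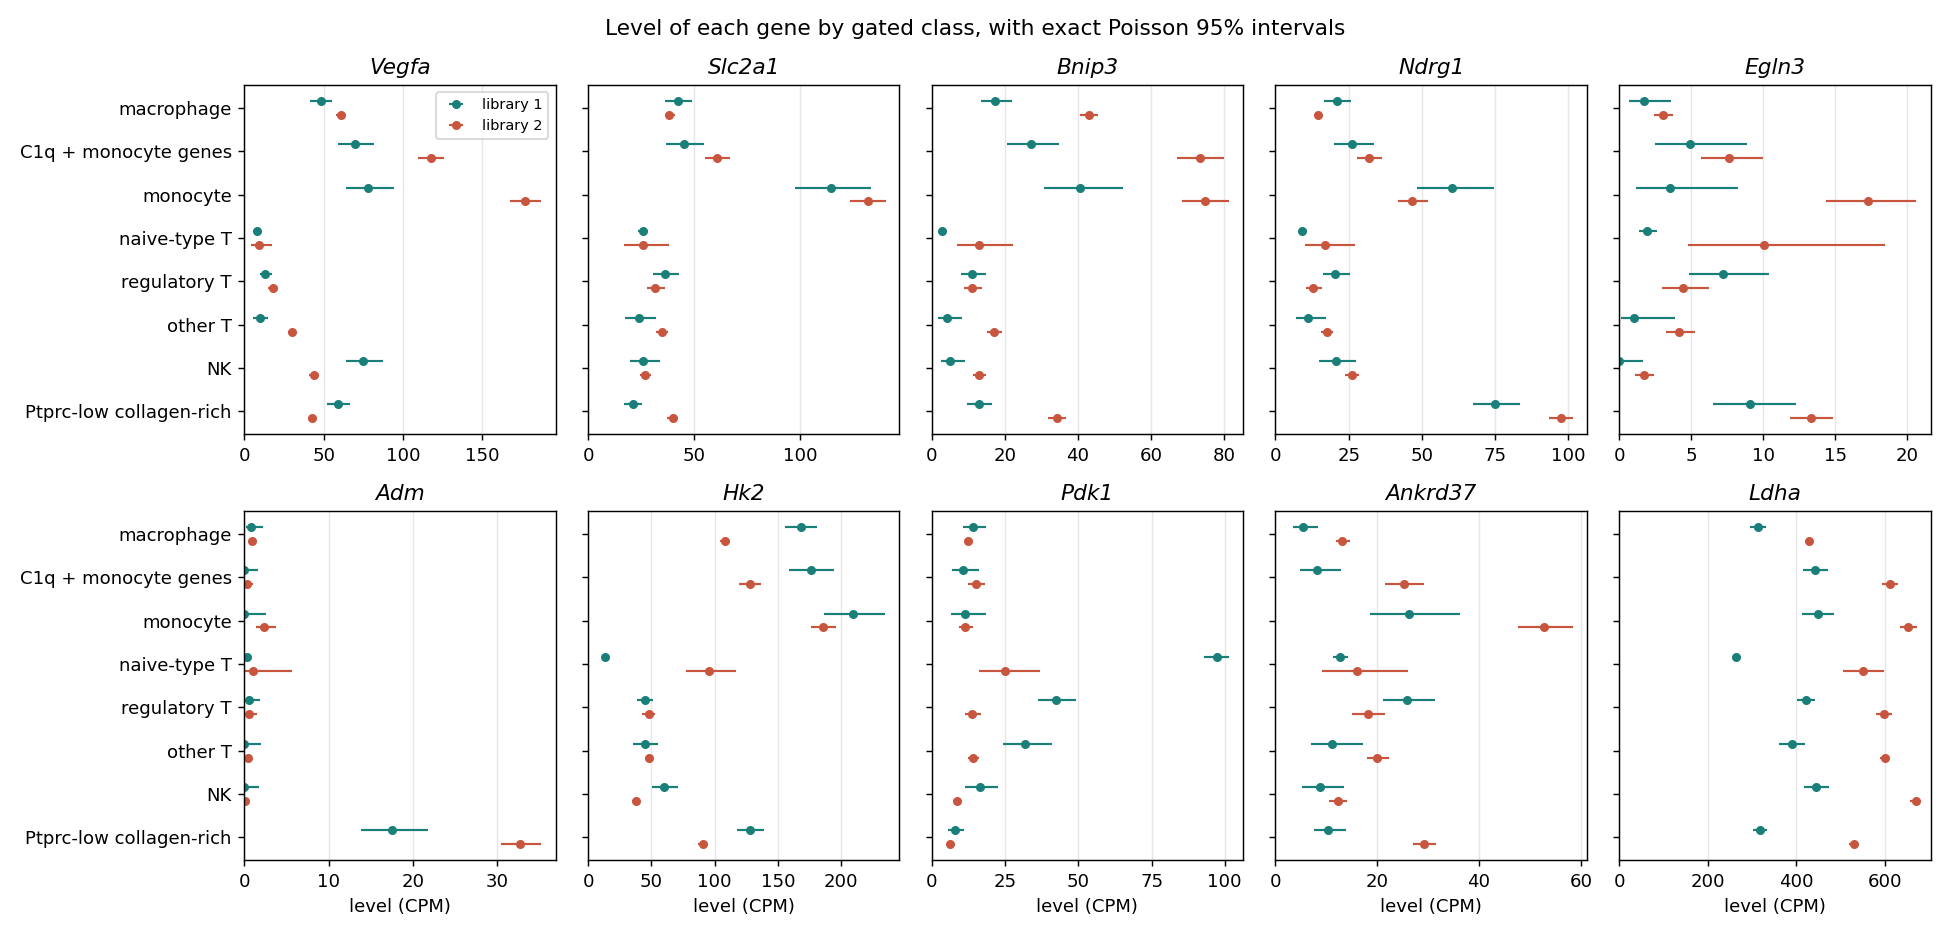
Level of each of the 10 genes in the 8 ranked classes, in CPM on a linear axis that starts at 0 and differs between panels. Points are library 1 and library 2 with exact Poisson 95% intervals; Slc2a1 in monocytes (114 CPM in library 1, 132 CPM in library 2) stands apart from the other ranked classes, and Adm is near 0 outside the collagen-rich cells.

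Glucose entry and its first step stood highest in monocytes. Slc2a1 (ENSMUSG00000028645, chr4:119108711-119137983), the glucose transporter GLUT1, reached 114 CPM in monocytes of library 1 (97.4 to 133) and 132 CPM in library 2 (124 to 141). The next ranked class, cells with C1q genes and monocyte genes together, held 45.1 CPM (library 1) and 60.6 CPM (library 2). The other ranked classes lay between 20.99 and 42.3 CPM in library 1 and between 26.1 and 39.8 CPM in library 2. Among the classes too small to be ranked, cDC2-type dendritic cells held 87.2 CPM (57.5 to 127) in the 20 cells of library 1, which overlapped monocytes, and 80.5 CPM (66.5 to 96.5) in the 124 cells of library 2, which did not. Hk2 (ENSMUSG00000000628, chr6:82725025-82774454), the hexokinase that phosphorylates glucose at the mitochondrial surface, showed a slope over the myeloid classes instead. Monocytes held 210 CPM (library 1) and 186 CPM (library 2), C1q cells with monocyte genes 176 CPM (library 1) and 128 CPM (library 2), and macrophages 168 CPM (library 1) and 108 CPM (library 2). In library 1 the interval for monocytes overlapped that of the C1q cells with monocyte genes. T and NK cells held 13.5 to 60.3 CPM of Hk2 in library 1 and 37.6 to 95.4 CPM in library 2.

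At the far end of glycolysis the pattern was flatter. Ldha (ENSMUSG00000063229, chr7:46841475-46855627), the lactate dehydrogenase subunit that turns pyruvate to lactate, was present in every class. Monocytes held 448 CPM (library 1) and 653 CPM (library 2) and NK cells 445 CPM (library 1) and 669 CPM (library 2). Its lowest level among the ranked classes was 263 CPM, in naive-type T cells of library 1, and 429 CPM, in macrophages of library 2. Unranked classes went lower, with 206 CPM in the B cells and 117 CPM in the migratory dendritic cells of library 1, and with 290 CPM in migratory and 367 CPM in plasmacytoid dendritic cells of library 2. The intervals of NK cells and monocytes overlapped in both libraries, and neither led the ranked classes clearly. The unranked cDC1 dendritic cells stood higher in both libraries. They held 594 CPM (481 to 727) in the 6 cells of library 1 and 722 CPM (663 to 785) in the 38 cells of library 2. The small collagen-poor class with little Ptprc (9 cells in library 1, 113 in library 2), which was not ranked, held 317 CPM (library 1) and 704 CPM (library 2). Pdk1 (ENSMUSG00000006494, chr2:71873224-71903858), the kinase that shuts pyruvate dehydrogenase and so keeps pyruvate out of mitochondria, ran against the rest of the set. It reached 97.2 CPM in naive-type T cells of library 1 (93.1 to 101), against 25.1 CPM in library 2 (16.2 to 37.05). Regulatory T cells held 42.4 CPM (library 1) and 13.8 CPM (library 2), and monocytes 11.4 CPM (library 1) and 11.5 CPM (library 2). Across the 8 classes, its level had a Pearson r of −0.67 in library 1 and −0.18 in library 2 with the mean standardised level of the set, which includes Pdk1 itself.

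The secreted members differed in their source. Vegfa (ENSMUSG00000023951, chr17:46016993-46032369), which makes vessels sprout, reached 78.1 CPM in monocytes of library 1 (64.2 to 94.2) and 177 CPM in those of library 2 (168 to 187). NK cells, defined by Ncr1, Klrb1c, Klrc2, Eomes and Prf1, held 74.9 CPM in library 1 (63.9 to 87.2) and 43.9 CPM in library 2 (40.8 to 47.1). Monocytes and NK cells therefore did not differ beyond counting error in library 1, while in library 2 monocytes, then C1q cells with monocyte genes at 118 CPM, then macrophages at 60.8 CPM stood in that order with no overlap. Naive-type T cells held 8.21 CPM (library 1) and 9.04 CPM (library 2), the lowest of the ranked classes. Adm (ENSMUSG00000030790, chr7:110627661-110629820), which encodes the vasodilator peptide adrenomedullin, was led among the ranked classes by cells outside the leukocyte gates. Collagen-rich cells with little Ptprc held 17.5 CPM in library 1 (79 UMIs) and 32.7 CPM in library 2 (743 UMIs). Monocytes of library 1 had 0 Adm UMIs, where 3 UMIs would be 2.13 CPM, and those of library 2 had 17, and every other ranked leukocyte class stood at or below 1.00 CPM. Among unranked leukocytes, migratory dendritic cells held 36.1 CPM in library 1 on 4 UMIs (9.84 to 92.4) and 4.86 CPM in library 2 on 3 UMIs. The 3 B cells of library 2 held 78.6 CPM on 2 UMIs (9.51 to 284). Free RNA, estimated from markers a class should lack, came to 0.123 of the Adm level in monocytes of library 2 and exceeded it in NK cells of library 2.

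The collagen-rich cells numbered 71 in library 1 and 389 in library 2 and passed the CD45 selection with little Ptprc, the gene for CD45: 5.08 CPM (library 1) and 5.68 CPM (library 2), against 863 CPM (library 1) and 613 CPM (library 2) in monocytes. Their fibroblast markers Col1a1, Col1a2, Col3a1, Dcn, Lum and Sparc summed to 11444 CPM (library 1) and 6140 CPM (library 2). The gate of these cells set a maximum for Ptprc and a minimum for the fibroblast markers, so both traits follow from the gate. Their 6 epithelial markers summed to 0.663 CPM (library 1) and 2.82 CPM (library 2), with Krt5 at 0 in both. Whether they are host stroma or the injected line was not tested. Besides Adm they led Ndrg1 (ENSMUSG00000005125, chr15:66929318-66969640), a stress-response gene linked to growth arrest and differentiation, with 75.1 CPM (library 1) and 97.5 CPM (library 2), and monocytes came next with 60.4 CPM (library 1) and 46.8 CPM (library 2). The lead was beyond counting error in library 2 and not in library 1. Migratory dendritic cells, too few to be ranked, held 99.3 CPM in the 9 cells of library 1 and 162 CPM in the 41 cells of library 2.

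The remaining genes include a mitochondrial protein, an ankyrin-repeat protein and an oxygen sensor. Bnip3 (ENSMUSG00000078566, chr7:138890836-138909519), which marks mitochondria for removal by autophagy, held 40.5 CPM (library 1) and 74.7 CPM (library 2) in monocytes and 27.0 CPM (library 1) and 73.5 CPM (library 2) in the C1q cells with monocyte genes. These classes overlapped in both libraries. Macrophages held 17.4 CPM (library 1) and 43.1 CPM (library 2), and lymphoid classes 2.94 to 10.97 CPM in library 1 and 11.1 to 17.1 CPM in library 2. Ankrd37 (ENSMUSG00000050914, chr8:45996902-46005707), a small ankyrin-repeat protein whose gene is a HIF target, reached 26.3 CPM in monocytes of library 1 and 52.8 CPM in library 2. In library 1 regulatory T cells stood beside them at 25.9 CPM, and B cells, ranked nowhere because library 2 had 3 of them, held 33.4 CPM. Egln3 (ENSMUSG00000035105, chr12:54178981-54203860), the prolyl hydroxylase PHD3 that is itself induced by HIF, stood at low levels. Monocytes had 5 UMIs in library 1 (3.55 CPM) and 125 in library 2 (17.3 CPM). Collagen-rich cells had 41 UMIs in library 1 (9.06 CPM) and 302 in library 2 (13.3 CPM), and their intervals overlapped those of monocytes. The unranked collagen-poor cells had 7 UMIs in library 1 (19.6 CPM) and 150 in library 2 (18.4 CPM). NK cells of library 1 had 0 Egln3 UMIs, where 3 UMIs would be 1.37 CPM, and those of library 2 had 29.

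In monocytes, estimated free RNA made up between 0.00401 and 0.089 of the level of each gene other than Adm in library 1, and between 0.0108 and 0.0308 in library 2. The gates cap markers of other classes, which also lowers this estimate. The monocyte lead rested on the gate. With the minimum of a class's own markers doubled, 1 gene was led by monocytes in both libraries, since C1q cells with monocyte genes or lymphoid classes then led Vegfa, Hk2 and Ankrd37 in library 1 and Bnip3 in library 2. With the level taken as a mean over cells, 2 genes, Slc2a1 and Hk2, were.

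Within a class, the libraries were compared by the log2 ratio of library 1 to library 2, which is negative where library 2 is higher. A gene was past the limit when it differed at least 2-fold and the exact interval excluded 1.5-fold, in 7 classes, each of 100 cells or more per library. Where members passed in myeloid cells, library 2 was the higher. In monocytes Vegfa (−1.18, interval −1.48 to −0.90) and Egln3 (−2.28, −3.93 to −1.02) passed, and 0.947% of 9296 genes were past the limit in that direction. In macrophages Bnip3 (−1.31) and Ankrd37 (−1.26) passed, against 1.09% of genes, and the same 2 genes passed in C1q cells with monocyte genes, at −1.44 and −1.64, against 0.939%. In favour of library 1, no gene of the set was past the limit in monocytes (1.98% of genes), macrophages (2.96%) or C1q cells with monocyte genes (1.65%), where Hk2 lay at 0.17 to 0.64 and Ndrg1 at −0.28 to 0.53. The median ratio of the set was −0.33 in macrophages (0.05 over all genes), −0.47 in C1q cells with monocyte genes (0.09) and −0.54 in monocytes (0.12). Dissociation stress genes lay the other way in monocytes, with a median of 0.40 and 1 of 10, Egr1, past the limit in favour of library 1. In macrophages their median was 0.55, with 3 of 10 past it. Of 11 S and M phase genes measured in monocytes, 10 had a ratio below 0 with a median of −1.24 over the list, and 2 were past the limit in favour of library 2. The part of these lists in the ratios was not tested. Some calls were lost with a change of cells. Vegfa in monocytes lay at −0.61 among cells of 10000 UMIs or more, Bnip3 in macrophages at −0.91 without cells that held a cell cycle UMI, Ankrd37 in C1q cells with monocyte genes at −1.08 with stricter own markers, and Ankrd37 in macrophages missed the limit under 6 alternatives, at −1.10 to −1.47.

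**Figure D2:**
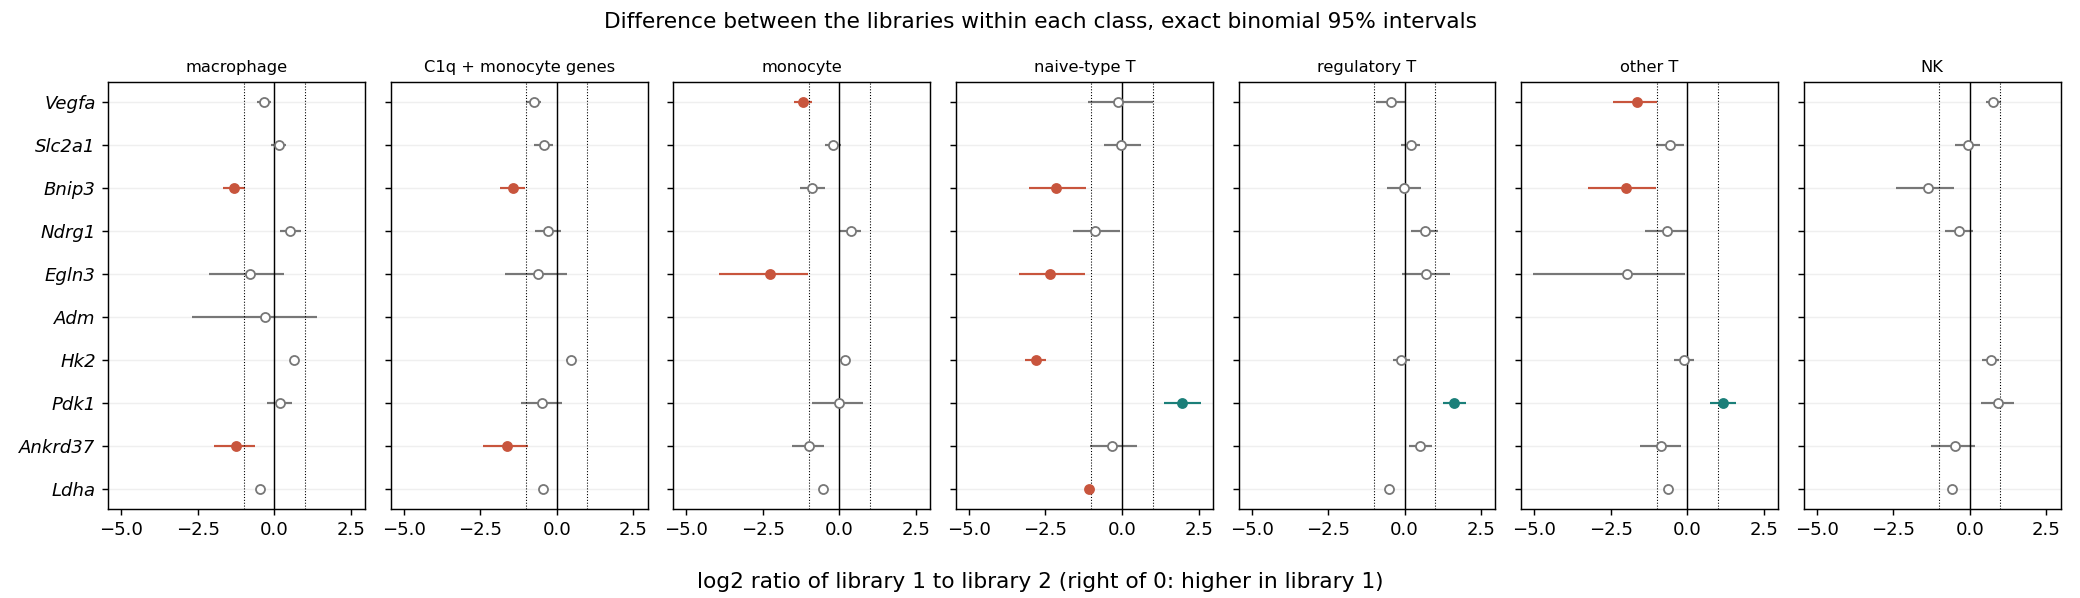
Log2 ratio of library 1 to library 2 for each gene in the 7 compared classes, with exact binomial 95% intervals; points right of 0 are higher in library 1, dotted lines mark a 2-fold difference, and filled points are past the limit. Ratios against a class with 0 UMIs or with under 20 UMIs in all are left out; Pdk1 lies to the right in the T cell classes while Ldha lies left of 0 in every class.

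T cells split the set. Its median ratio was −0.89 in naive-type T cells (−0.27 over all genes), 0.20 in regulatory T cells (0.04) and −0.65 in other T cells (−0.04). Pdk1 was higher in library 1 in all 3 T cell classes, on the log2 scale by 1.95 in naive-type T cells (1.39 to 2.58), 1.62 in regulatory T cells (1.25 to 1.99) and 1.18 in other T cells (0.75 to 1.60). The share of all genes past the limit in that direction was 2.6% in naive-type T cells, 5.91% in regulatory T cells and 1.77% in other T cells. Of these calls, regulatory T cells lost theirs with stricter own markers (1.12), and other T cells theirs among cells of 10000 UMIs or more (1.00). In NK cells the Pdk1 ratio was 0.93, short of the limit. No gene of the set was higher in library 2 past the limit in regulatory T cells, where 3.28% of genes were. Library 2 was higher for Bnip3 (−2.15), Egln3 (−2.36), Hk2 (−2.82) and Ldha (−1.07) in naive-type T cells, where 14.5% of all genes were past the limit in that direction. It was also higher for Vegfa (−1.65) and Bnip3 (−2.01) in other T cells, against 3.49%. In naive-type T cells 10 of 12 S and M phase genes were higher in library 2 as well, with a median of −3.13, and their part in these ratios was not tested. Without cells that held a cell cycle UMI, Hk2 in naive-type T cells and Bnip3 in other T cells were still past the limit in favour of library 2 and the other 4 of these were not. Those 4 then lay at −0.85 for Bnip3, −2.73 for Egln3 and −0.95 for Ldha in naive-type T cells, and at −1.12 for Vegfa in other T cells, so that the Egln3 ratio was larger in size than with all cells and the Ldha ratio close to it. With stricter own markers naive-type T cells lost 3 calls, Bnip3 at −0.71, Egln3 at −1.21 and Ldha at −0.58. Among cells of 10000 UMIs or more, Hk2 in naive-type T cells lay at −0.81.

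NK cells had no gene of the set past the limit in either direction, where 3.04% of all genes were higher in library 1 and 0.989% higher in library 2. Vegfa (0.77, 0.52 to 1.02) and Hk2 (0.68, 0.40 to 0.95) had intervals above 0 there, and Bnip3 (−1.37, −2.40 to −0.51) and Ldha (−0.59, −0.68 to −0.49) below it. Dissociation stress genes were also higher in the NK cells of library 1. Of the 10 listed, 8 were past the limit, among them Fos (1.28), Hspa1a (2.99) and Hspa1b (3.13), with a median of 1.29, and their part in the Vegfa ratio was not tested. Ldha was higher in library 2 in each of the 7 classes, from −0.45 in macrophages to −1.07 in naive-type T cells, and all 7 intervals lay below 0.

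Other genes of the oxygen response were taken from fixed lists of the pathway. Hilpda, which guards lipid droplets in hypoxic cells, was past the limit in favour of library 2 in 6 of the 7 classes, at −1.80 in macrophages, −1.68 in C1q cells with monocyte genes, −1.62 in monocytes, −2.45 in naive-type T cells, −1.30 in regulatory T cells and −1.51 in other T cells. NK cells, which led Hilpda among the ranked classes in both libraries (131 CPM in library 1, 205 CPM in library 2), showed −0.65. Among 22 other HIF targets measured in monocytes, Hilpda, the oxidative protein-folding enzyme gene Ero1l (−1.16) and the mitochondrial protein gene Fam162a (−1.28) were past the limit in favour of library 2. The gene of the glycolytic regulator Pfkfb3 (1.04) was past it in favour of library 1. None of 16 glycolysis genes in monocytes passed, and 12 of the 16 had a ratio below 0. None of 6 pyruvate entry genes, 5 mitophagy genes, 7 HIF1A inducers or 7 Myc and mTOR nutrient genes passed there. The oxygen-sensing genes themselves did not pass in monocytes (0 of 7). Hif1a, which encodes a HIF alpha subunit controlled largely as protein, was led by monocytes in both libraries with 283 CPM (library 1) and 280 CPM (library 2), a ratio of 0.02. In library 1 regulatory T cells came next with 255 CPM and overlapped monocytes, while the lead was clear in library 2. Flt1, the VEGF receptor 1 gene, was highest in monocytes among the ranked classes and was higher in library 1 there, at 70.3 CPM against 13.3 CPM in library 2 (2.40, 1.98 to 2.82), opposite in sign to Vegfa.

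Genes of the set were then counted cell by cell, after each cell had been thinned to 4000 UMIs so that depth was equal. Cells with at least 3 of the 10 genes made up 37.0% of monocytes in library 1 (28.9 to 45.8%) and 44.2% in library 2 (40.8 to 47.7%). In macrophages they made up 16.2% in both libraries, in NK cells 11.2% (library 1) and 12.6% (library 2), and in naive-type T cells 5.14% (library 1) and 10.0% (library 2). Nearest to monocytes among the ranked classes were C1q cells with monocyte genes, with 20.7% (library 1) and 32.8% (library 2). Collagen-rich cells held 19.7% (library 1) and 26.99% (library 2). In cDC2-type dendritic cells, not ranked, such cells were 6 of 20 in library 1 (11.9 to 54.3%), an interval that held the monocyte value. In library 2 they were 31 of 124 (17.7 to 33.6%), below monocytes. B cells of library 1, a class not ranked, held 3.82%, and the 38 plasmacytoid dendritic cells of library 2 held 2.63% (0.0666 to 13.8%). Unthinned, monocytes of library 1 held a mean of 3.33 of the genes at a median depth of 9860 UMIs and those of library 2 a mean of 3.52 at 7754 UMIs. Naive-type T cells held 1.69 at 6239 UMIs in library 1 and 2.15 at 7842 UMIs in library 2. Single genes differed in how widely they were found. Vegfa was found in 16.3% of thinned monocytes of library 1 and 35.6% of library 2. Unthinned, the shares were 28.9% (library 1) and 47.2% (library 2). In naive-type T cells, the class lowest in Vegfa level, the thinned shares were 2.25% (library 1) and 2.00% (library 2). Slc2a1 was found in 33.3% (library 1) and 34.2% (library 2) of thinned monocytes, and in 8.88% (library 1) and 9.0% (library 2) of naive-type T cells. In NK cells Vegfa was found in 26.6% (library 1) and 15.7% (library 2) of thinned cells, although the unthinned shares were 38.5% (library 1) and 38.1% (library 2) at median depths of 11995 UMIs (library 1) and 16310 UMIs (library 2).

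In monocytes of both libraries, and in several classes of library 2, cells with many genes of the set were more common than the separate shares of the genes would give. At least 5 genes were found in 5.19% of monocytes of library 1 (2.11 to 10.4%) and 9.63% of library 2 (7.72 to 11.8%), while the product of the single-gene shares came to 1.92% (library 1) and 4.26% (library 2). In library 2 the same held for C1q cells with monocyte genes (7.29% observed, 2.33% from the product), collagen-rich cells (6.17% observed, 1.76% from the product), macrophages (1.84% observed, 0.27% from the product), regulatory T cells (0.986% observed, 0.085% from the product) and other T cells (1.26% observed, 0.133% from the product). In NK cells of library 2 the interval of the observed 0.318% held the product of 0.122%. In library 1 the interval held the product in macrophages (0.0121 to 2.62%, product 0.233%), C1q cells with monocyte genes (0.18 to 5.25%, product 0.455%), regulatory T cells (0.0664 to 1.97%, product 0.154%) and collagen-rich cells (0.0357 to 7.60%, product 0.383%). At 3 genes or more, monocytes did not exceed the product, with 44.2% observed and 47.6% from the product in library 2 and 37.0% observed and 36.3% from the product in library 1. At the other end, 4.99% of monocytes of library 2 had none of the genes, above the 2.07% of the product, so that cells with many and with none were both in excess. Of all cells with at least 5 genes, 7 of 18 in library 1 and 81 of 239 in library 2 were monocytes, which is 38.9% (library 1) and 33.9% (library 2), while monocytes made up 2.71% (library 1) and 12.5% (library 2) of cells. A further 43 such cells of library 2 fell in no gate.

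**Figure D3:**
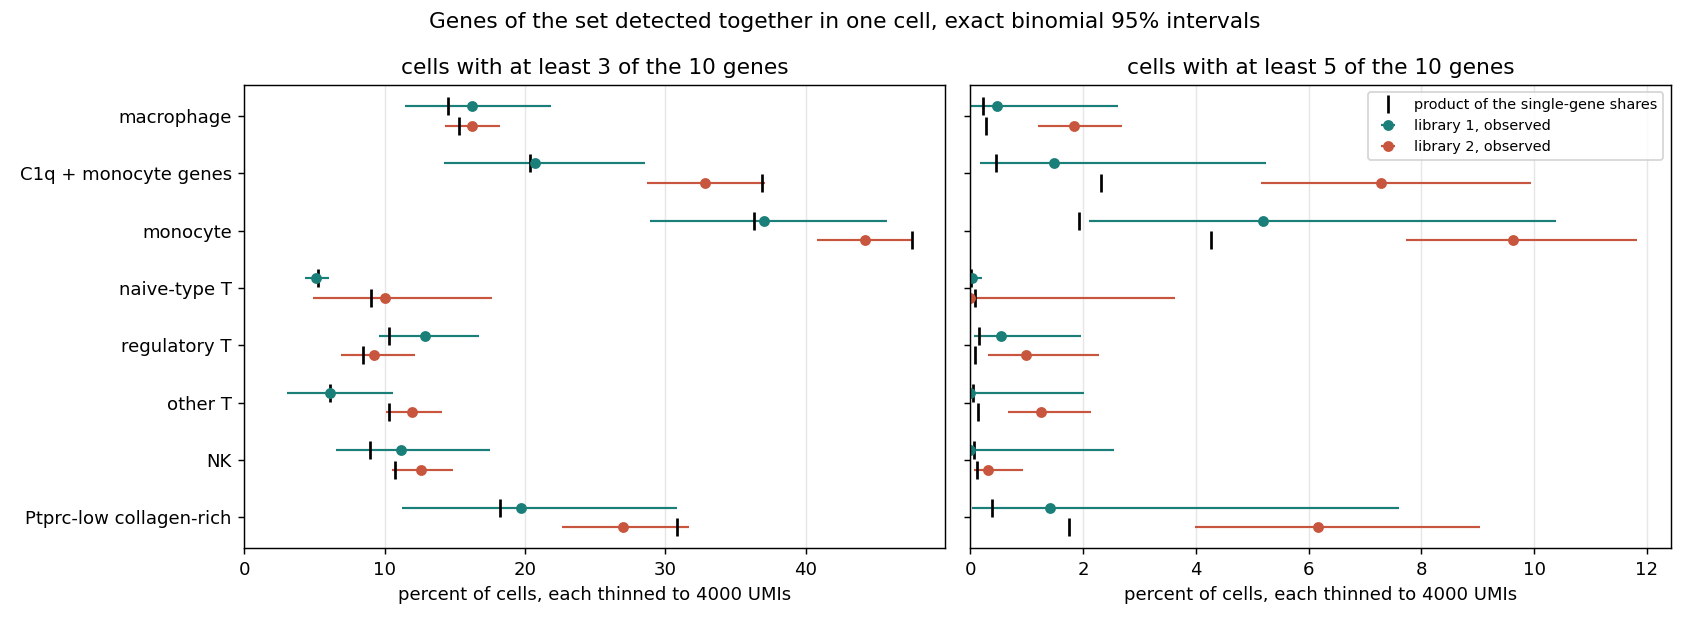
Percent of cells with at least 3 (left) and at least 5 (right) of the 10 genes, each cell thinned to 4000 UMIs, by class and library, with exact binomial 95% intervals. Black ticks give the share expected if each gene were found independently at its own rate; in monocytes of library 2 the observed 9.63% with at least 5 genes lies above the tick at 4.26%.

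Pairwise correlation across thinned cells described which genes went together. In monocytes 7 genes were found in at least 5% of cells in each library, which gives 21 pairs. The median Pearson r was 0.083 over 135 cells of library 1 and 0.146 over 841 cells of library 2. All 21 pairs were above 0 in library 2, and 16 of them (76.2%) were above 0.1, a share that was 1.21% among all gene pairs. In library 1, with fewer cells, 9 of 21 pairs (42.9%) were above 0.1, against 14.03% of all pairs. All pairs are those of genes found in at least 5% of cells, not matched to the set by how widely each gene was found. Among the 7 genes that share ran from 12.8% for Ndrg1 to 85.4% for Ldha in monocytes of library 2. The highest pair in library 2 was Bnip3 with Ldha (0.29), followed by Vegfa with Slc2a1 (0.22), and in library 1 the pairs Vegfa with Bnip3 (0.26) and Slc2a1 with Ldha (0.26) were highest. Ndrg1 went with Vegfa at −0.12 in library 1 and 0.08 in library 2. Elsewhere, over 6 to 28 pairs a class, the median was 0.055 (library 1) and 0.128 (library 2) in C1q cells with monocyte genes, 0.053 (library 1) and 0.107 (library 2) in collagen-rich cells and 0.030 (library 1) and 0.087 (library 2) in macrophages. It was 0.019 (library 1) and 0.056 (library 2) in other T cells, 0.055 (library 1) and 0.021 (library 2) in regulatory T cells and 0.035 (library 1) and 0.017 (library 2) in NK cells. Cells of 1 library share their preparation and free RNA, counts are sparse, and these values are descriptions.

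**Figure D4:**
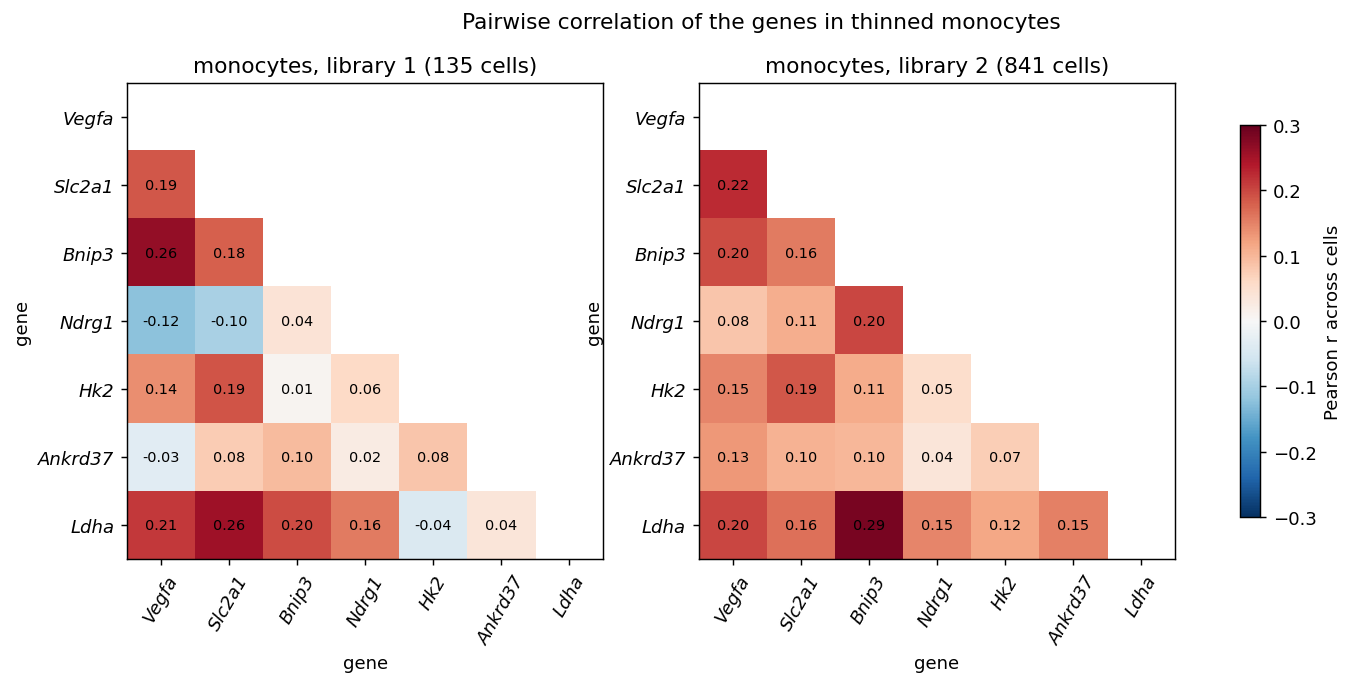
Pearson r across thinned cells for the 21 pairs of the 7 genes found in at least 5% of gated monocytes, library 1 (135 cells) left and library 2 (841 cells) right. Red is positive and blue negative; all pairs are above 0 in library 2, with Bnip3 and Ldha highest at 0.29.

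Genes outside the set were ranked by their correlation with its summed level across monocytes, among 5794 genes in library 1 and 5319 in library 2. Ldha alone held 448 of the summed 992 CPM in monocytes of library 1 and 653 of 1353 CPM in those of library 2. The sum therefore leans on Ldha, itself a gene of glycolysis, more than on any other gene of the set. Glycolysis genes stood near the top in both libraries. In library 2 Gapdh was first of all genes (0.48) and Pgam1 was second (0.44). Tpi1 lay at 0.40 (library 1) and 0.39 (library 2), and Pgk1 at 0.39 (library 1) and 0.34 (library 2). Other HIF targets had a median of 0.18 in both libraries, with 11 of 15 genes above 0.1 in library 1 and 11 of 16 in library 2, where the shares over all genes were 15.7% (library 1) and 5.26% (library 2). Hilpda lay at 0.22 (library 1) and 0.37 (library 2), and the lactate exporter gene Slc16a3 at 0.32 (library 1) and 0.28 (library 2). The list of HIF1A inducers in myeloid cells had medians of 0.06 (library 1) and 0.15 (library 2), and the prostaglandin synthase gene Ptgs2 lay at 0.37 (library 1) and 0.26 (library 2). Hif1a itself lay at 0.23 (library 1) and 0.14 (library 2). The oxygen sensor gene Egln1, also a HIF target, lay at −0.03 in library 1 and 0.30 in library 2. Dissociation stress genes had medians of 0.04 (library 1) and 0.02 (library 2), and Egr1 lay at −0.09 (library 1) and −0.08 (library 2). The medians of oxygen sensing (0.045 in library 1, 0.046 in library 2), pyruvate entry (0.074 in library 1, −0.047 in library 2) and mitophagy genes (−0.043 in library 1, 0.019 in library 2) were nearer to that of all genes (0.007 in library 1, −0.005 in library 2).

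**Figure D5:**
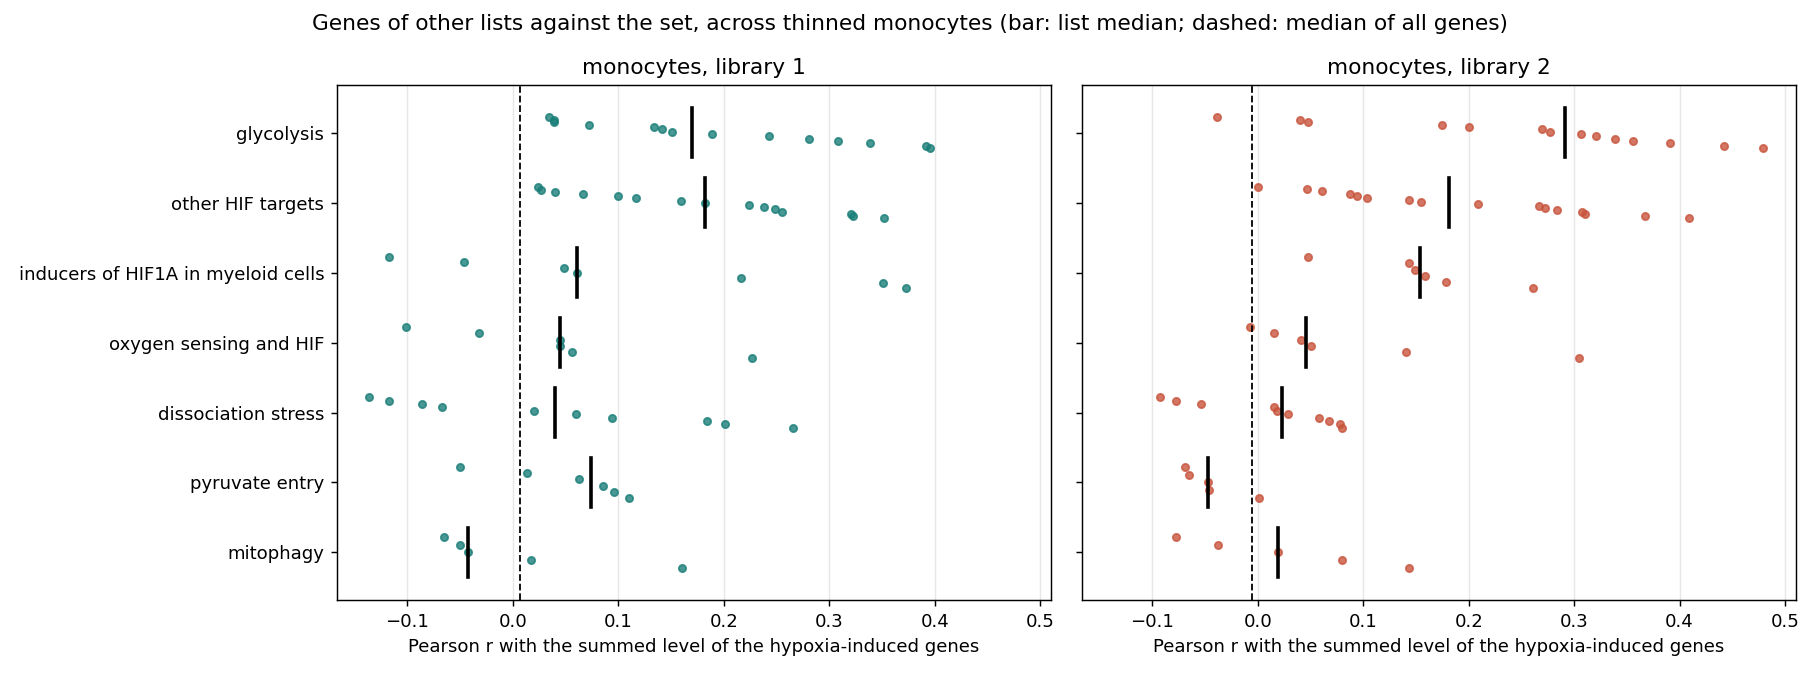
Pearson r of each listed gene with the summed level of the hypoxia-induced genes across thinned monocytes, library 1 left and library 2 right, one point per gene. Black bars are list medians and the dashed line is the median of all genes; glycolysis (medians 0.17 in library 1, 0.29 in library 2) and other HIF targets (0.18 in both) lie right of dissociation stress (0.04 in library 1, 0.02 in library 2).

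In macrophages the summed level went against the C1q genes that define the gate in library 2 but not in library 1. Ldha held 313 of the summed 632 CPM in macrophages of library 1 and 429 of 723 CPM in those of library 2. C1qa had an r of 0.02 over 210 cells of library 1 and −0.21 over 1412 cells of library 2, where it ranked 6437 of 6440 genes. C1qb and C1qc were alike in library 2, at −0.20 each. The monocyte markers did not move together: Plac8 had an r of 0.08 in library 1 and 0.13 in library 2, Ly6c2 of 0.20 in library 1 and −0.02 in library 2, Ccr2 of 0.03 in library 1 and 0.04 in library 2, and Ms4a4c of −0.07 in library 1 and −0.02 in library 2. A cell's C1q level is part of the gate, so a gradient within the gate is described and no class is set apart from it. Cells with many monocyte marker UMIs were gated apart as C1q cells with monocyte genes, which limits the range of those markers here.

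The 5 genes whose profile over the 8 ranked classes was most like that of the set, by the lower of the 2 libraries' Pearson r, were Gm14005 (0.91), the pyruvate kinase gene Pkm (0.91), the phosphatase subunit gene Ppp2ca (0.89), Esd (0.88) and H13 (0.88), of 7187 genes. The set's own genes varied in how well their class profile matched between the libraries, from r = 0.54 for Hk2 and 0.55 for Ankrd37 to 0.88 for Slc2a1 and 0.94 for Adm. Each of these correlations rests on 8 classes.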

How the data were processed

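The authors deposited 1 pooled matrix of whole-number UMI counts with no normalization, over 31053 genes and 12514 barcodes. Cell Ranger 3.1.0 made it, per the file headers, and the genome build was mm10 per the submitters' processing notes. Not given in the sources used here are aligner settings, annotation and cell calling.

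Cells needed at least 200 genes, 500 UMIs and at most 10% mitochondrial UMIs. The matrix holds no barcode under 4166 UMIs. Scrublet at an expected rate of 0.06 called 2 doublets in library 1 and 1 in library 2 by its own threshold, so the top 5% by score were dropped instead, 262 barcodes of library 1 and 354 of library 2. This left 52176265 UMIs in library 1 and 134116362 in library 2. Cells were gated by UMIs of 93 marker genes per 10000 UMIs. Gate limits followed a look at the marker distributions, and the described genes played no part in them. Of the cells, 429 in library 1 and 665 in library 2 fell in no gate.

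Levels are summed UMIs as CPM with exact Poisson intervals, ratios have exact conditional binomial intervals, and shares have Clopper-Pearson intervals. A ratio needed 20 UMIs. A zero was set to 3 UMIs, and no such ratio is printed. Correlations use log-normalised counts thinned to 4000 UMIs. The ratio step was tested on simulated data that had counting error only, with changes placed in genes of high count. That test therefore does not cover changes at low counts or spread between cells and libraries. No p-value is given, since cells of 1 library are no replicates of its group.

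Named genes are the 10 genes of the set, any gene of 11 further lists (118 listed genes in all, each found), the markers of the gates and the 5 genes most like the set by profile. The result of 1 listed gene is not reported here. The genes and lists were chosen with earlier results of these data known. Gene coordinates are mm10 and promoters are from RefSeq, GRCm38.p6. Work was done in Python 3.11.15 with numpy 2.4.6, scipy 1.17.1, pandas 2.3.3 and scanpy 1.11.5. Alternatives changed the doublet, mitochondrial and depth limits, the gates, the scaling, the weight of cells, free RNA, the thinning and the limits of calls.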

Additional observations from a re-analysis of the deposited data

Results flagged for a closer look

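For 4 genes the log2 ratio of library 1 to library 2 had opposite signs in 2 classes, with both intervals away from 0. These classes come from the same 2 libraries, and the difference between the classes was not tested. The share of all genes with such a pair of classes is not given here, so the count is no result about the set. The ratios were not centred on all genes. Vegfa was 0.77 in NK cells and −1.65 in other T cells. Hk2 was 0.68 in NK cells and −2.82 in naive-type T cells. Ndrg1 was 0.66 in regulatory T cells and −0.89 in naive-type T cells. The interval of the latter, −1.60 to −0.08, held the all-gene median of −0.27 in that class. Ankrd37 was 0.52 in regulatory T cells and −1.64 in C1q cells with monocyte genes.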

How the results depend on the processing

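No call changed direction under any alternative run. Of the recomputed single-gene ratios, 781 kept their side of the limit, 23 lost it and 21 gained it. The settings that centred ratios on the median of all genes or left out cells with a cell cycle UMI were chosen after seeing the data. Of the 10 genes, the number with the same leading class in both libraries was 8, and became 4 with doubled own-marker minimum and 3 without cycling cells. The number led by monocytes in both was 5, and became 1 with doubled own-marker minimum, 3 without mitochondrial, ribosomal and Gm42418 UMIs in the total, 2 as a mean over cells and 3 without cycling cells. Without cycling cells these were Slc2a1, Ankrd37 and Ndrg1, the last of which was led by collagen-rich cells when all cells were used. Doubled minimum and the 10000 UMI limit each left naive-type T cells unranked, and leaving out cycling cells left naive-type T and collagen-rich cells unranked. The summed level was 992 and 1353 CPM in monocytes of library 1 and library 2, and 632 and 723 CPM in macrophages. Without mitochondrial, ribosomal and Gm42418 UMIs it was 1270 and 1734 CPM in monocytes and 819 and 910 CPM in macrophages. In library 2 alone, it was 1293 CPM in monocytes and 684 CPM in macrophages without the 1% of cells with most UMIs of the set, and 1324 and 687 CPM after free RNA was subtracted. It was 706 CPM in macrophages of library 2 as a mean over cells, and without cycling cells 1401 CPM in monocytes of library 2 and 714 CPM in macrophages of library 1. Genes past the limit in favour of library 2 in macrophages numbered 2, and 1 with high doublet scores kept, a 5% mitochondrial limit, halved maximum of other markers, a mean over cells or the top 1% of cells left out, and 0 without cycling cells. In C1q cells with monocyte genes the 2 became 1 with doubled own-marker minimum. In monocytes the 2 became 1 among cells of at least 10000 UMIs, 4 at a 1.5-fold limit and 4 when centred. In naive-type T cells the 4 became 1 with doubled own-marker minimum and 1 without cycling cells. In other T cells the 2 became 1 among cells of at least 10000 UMIs, 6 at a 1.5-fold limit and 1 without cycling cells. In NK cells the 0 became 1 among cells of at least 10000 UMIs, 2 at a 1.5-fold limit and 1 when centred. In favour of library 1, the 1 gene in regulatory T cells became 0 with doubled own-marker minimum and 2 at a 1.5-fold limit, and the 1 in other T cells became 0 among cells of at least 10000 UMIs. At a 1.5-fold limit the 0 in macrophages became 1 and the 0 in NK cells became 3. Shares of all genes led by a class or past the limit are given here for the main setting only. Counts under the alternatives, the looser limit among them, are therefore no result about the set. Thinned to 8000 UMIs, cells with at least 3 genes made up 61.2% and 67.6% of monocytes and 36.1% and 37.0% of macrophages. The median pair r of macrophages in library 1, 0.030, became 0.0090 with a 5% mitochondrial limit, 0.099 with doubled own-marker minimum and 0.066 when thinned to 8000 UMIs. The causes were not tested. No paired analysis was possible because each group has 1 library and no source used here maps the libraries to the groups. Depth limits Adm in the ranked leukocyte classes, with 0 to 25 UMIs, and Egln3 in library 1, with 0 to 11 UMIs in macrophages, monocytes, C1q cells with monocyte genes, other T and NK cells.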
